A study of Mus musculus with 57 samples.

Results

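The 10 genes described here make bile acids from cholesterol in the liver or regulate that synthesis through the bile acid receptor FXR. They are Cyp7a1, Cyp7b1, Cyp8b1, Cyp27a1, Akr1d1, Hsd3b7, Baat, Slc27a5, Nr0b2 and Nr1h4. Each was found by its mouse symbol through the Ensembl identifier of its row, which gave 10 of the 54307 genes in the count table, and all 10 passed the filter on low counts in every comparison. The genes were listed by name, not chosen from values of one contrast.

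Livers came from 57 male wild-type C57BL/6JJcl mice, 6 weeks old plus 1 week of acclimatisation, dosed after a fast of 12 h and killed after a further 24 h. By gavage, 4 mice received alpha-naphthyl isothiocyanate (ANIT), 7 received 4,4'-methylene dianiline (MDA), 6 received acetaminophen (APAP), 5 received thioacetamide (TAA) and 13 received 0.5% methylcellulose. By intraperitoneal injection, 7 received carbon tetrachloride (CCl4), 4 received galactosamine (GAL) and 2 received 0.9% saline. By injection into the tail vein, 7 received concanavalin A (ConA), a plant lectin, and 2 received 0.9% saline. All groups had the same genotype and were given the same volume per body weight, 10 µL/kg according to the labels, and no compound dose is used here. A compound could have been dissolved in methylcellulose, saline or corn oil. No corn oil control was used here, so an effect of that solvent cannot be told apart from that of a compound given in it. Each comparison set the treated mice against the vehicle mice of their route, and a further comparison set them against all 17 vehicle mice. The 4 gavage compounds share the 13 gavage controls, and CCl4 and GAL share the 2 intraperitoneal controls.

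Bile acids are made in hepatocytes by a classical route and an alternative route. CYP7A1 opens the classical route and sets its rate, and CYP8B1 adds the hydroxyl group that directs intermediates to cholic acid. CYP27A1 and CYP7B1 open the alternative route, while HSD3B7 and AKR1D1 modify the steroid ring on both routes, and SLC27A5 and BAAT join the finished bile acid to an amino acid. FXR, encoded by Nr1h4, is a nuclear receptor that binds bile acids. It raises transcription of Nr0b2, whose product SHP is a repressor of Cyp7a1 and Cyp8b1, and of the exporters Abcb11 and Slc51b.

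Promoter sequences are shown for Nr0b2 and Cyp8b1, an FXR target and an enzyme gene with large changes. The RefSeq table of promoters on GRCm38.p6 held 6 of the 10 genes. Each sequence is the 250 bases before the annotated start site, read 5′ to 3′ on the strand of the gene. Nr0b2 is on the plus strand at chr4:133553126-133553375, and the capitals mark the letters TCAAGG, known as the core of sites bound by the nuclear receptors LRH-1 and ERR, at 68 and 35 bases before the start. Cyp8b1 is on the minus strand at chr9:121916306-121916555, and the capitals mark the letters CAAAGTCCA, known from HNF4A sites, at 67 bases before the start.
Nr0b2: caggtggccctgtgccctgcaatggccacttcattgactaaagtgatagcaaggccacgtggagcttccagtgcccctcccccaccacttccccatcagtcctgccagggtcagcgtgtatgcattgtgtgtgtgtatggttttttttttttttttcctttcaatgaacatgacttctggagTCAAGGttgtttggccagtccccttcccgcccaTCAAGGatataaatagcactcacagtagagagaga
Cyp8b1: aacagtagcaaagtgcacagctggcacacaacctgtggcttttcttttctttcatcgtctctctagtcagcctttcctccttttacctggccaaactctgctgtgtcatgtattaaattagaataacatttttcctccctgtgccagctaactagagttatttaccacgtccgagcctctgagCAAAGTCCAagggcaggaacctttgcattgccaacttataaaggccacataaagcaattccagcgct

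Both strands of every window were searched for 6 motifs. The nuclear receptor core AGGTCA was in 14% of the 32851 promoters of that table, TCAAGG in 12.5% and CAAAGTCCA in 0.384%. TCAAGG was also in the Akr1d1 window, on the minus strand at 213 bases before the start, where it overlaps an AGGTCA at 210 bases. Akr1d1 held a further AGGTCA at 232 bases, and Nr1h4 held one at 214 bases, both on the minus strand. The FXR-type inverted repeat AGGTCANTGACCT (in 0.00609% of promoters), the direct repeat AGGTCANAGGTCA (0.0335%) and the longer TCAAGGNCA (1.39%) were in none of the 6 windows. The motifs TCAAGG and CAAAGTCCA were added to the search after these sequences had been seen, and a match is a match of letters and not a measured binding site.

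Levels are given as CPM, counts scaled to a common library size, computed from the deposited estimated counts with scaling factors set over all 57 mice. Total estimated counts ran from 13826343 to 35075809 per mouse. Mouse numbers are those of the labels. Samples of 1 group are taken as separate mice, as the labels number them. A gene is called changed where edgeR's quasi-likelihood test gave a Benjamini-Hochberg adjusted p under 0.05 over all genes tested. Log2 fold changes are treated minus vehicle. The ± after them is an approximate standard error, the absolute change divided by the square root of the test's F. In whole liver, fewer cells of a type and less RNA per cell cannot be told apart. The APAP library 1 stood apart from its group, with a median correlation of 0.856 with the other APAP libraries against 0.901 to 0.919 for those. GAL library 2 stood apart less, at 0.918 against 0.951 to 0.957 for the other GAL libraries. Several fitted changes are given with and without these mice.

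In vehicle livers the opening enzyme of the classical route varied more than any other of the 10 genes. Cyp7a1 ran from 14.3 to 559 CPM over the 13 gavage vehicle mice, with a median of 83.2. Its coefficient of variation was 108% there. The 2 intraperitoneal saline mice had 91.2 and 2.55 CPM, and the 2 intravenous saline mice had 4.13 and 172 CPM. Each injected pair therefore held 1 low mouse, which limits what can be said of Cyp7a1 after CCl4, GAL and ConA. Setting intraperitoneal saline against gavage vehicle, edgeR called 0 of the 10 genes, beside 0.0131% of all genes tested (all of them higher), and setting intravenous saline against gavage vehicle it called 0 beside 0.0263% (0.0197% higher and 0.00658% lower). In both, 0 of the 10 had an unadjusted p under 0.05, and DESeq2 and limma called 0 as well.

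Among gavage vehicle mice, 4 of the 10 genes were higher in those with low numbers. Cyp7a1 was 297 ± 183 CPM (SD, n = 4) in mice numbered 1 to 4 and 65.6 ± 37.9 CPM (SD, n = 9) in mice numbered above 4, and the 2 ranges, 166 to 559 and 14.3 to 133 CPM, did not overlap. An exact two-sided permutation test gave p = 0.0027972 for Cyp7a1, the smallest that 4 against 9 mice allow, and 0.013986 after adjustment over the 10 genes. Cyp8b1 split in the same way, at 315 to 431 against 137 to 297 CPM, with the same exact p-values. Slc27a5 (exact permutation p = 0.0083916, adjusted 0.027972) and Nr1h4 (exact permutation p = 0.01958, adjusted 0.04895) were higher in the low-numbered mice too. In Slc27a5 the mice above 4 were not alike. Mice 7 to 12 had 648 to 781 CPM and overlapped mice 1 to 4 (707 to 1039). Mice 15 to 18 had 410 to 574 CPM, below both. Cyp7a1, Cyp8b1 and Nr1h4 overlapped between mice 7 to 12 and mice 15 to 18. No treated mouse was numbered above 12. For the other 6 genes the adjusted exact permutation p ran from 0.285 to 0.968, and Nr0b2 was at 42.0 to 73.5 against 32.7 to 112 CPM. Of the marker lists described further on, Kupffer cell markers summed to 151 to 187 CPM in mice 1 to 4 and 258 to 437 CPM in those above 4. Monocyte and macrophage markers (at most 50.6 against 68.2 to 132 CPM) and cholangiocyte markers (22.7 to 35.9 against 39.8 to 106 CPM) did not overlap either, and hepatocyte markers were at 87244 to 123360 against 63275 to 88314 CPM. Their part in the difference was not tested. The labels do not say what the numbers stand for.

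**Figure D1:**
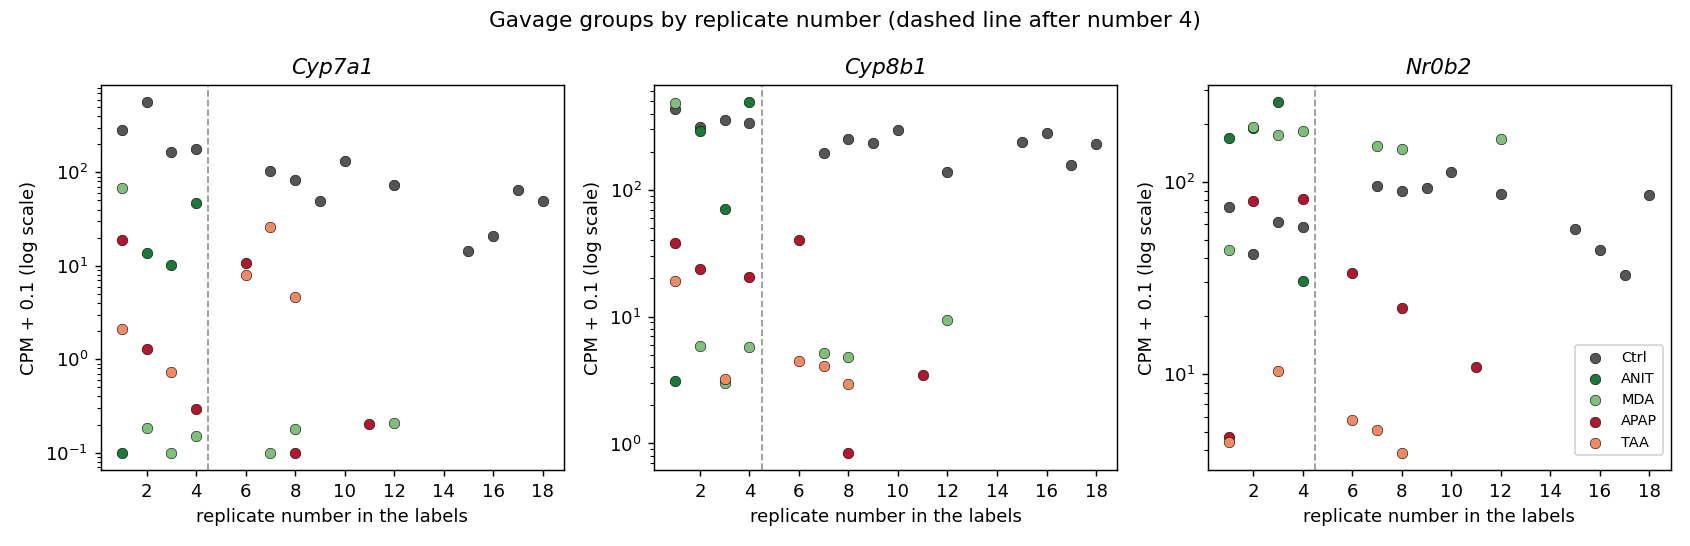
Levels of Cyp7a1, Cyp8b1 and Nr0b2 (CPM plus a small constant so that 0 can be drawn, log scale) are plotted against the mouse number in the labels for the 5 gavage groups, each point being 1 mouse and the dashed line standing after number 4. The gavage vehicle points left of the line lie above those right of it for Cyp7a1 and Cyp8b1, and ANIT was given only to mice left of it.

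Against the vehicle of their route, most of the 10 genes fell after 5 of the 7 toxicants, and Nr0b2 rose after ANIT and MDA. APAP lowered 9 of 10 and raised none, whereas over all genes tested it changed 31.8%, with 17.3% higher and 14.6% lower. TAA lowered 9 and raised none (50.5% of all genes changed, 26.4% higher and 24% lower), and so did CCl4 (33.5%, with 18% higher and 15.6% lower). GAL lowered 8 and raised none (28.5%, with 12.8% higher and 15.7% lower), and ConA lowered 7 and raised none (34.2%, with 16.8% higher and 17.3% lower). ANIT raised 1 and lowered 4 (28.2%, with 14% higher and 14.2% lower), and MDA likewise raised 1 and lowered 4 (33.8%, with 17.4% higher and 16.4% lower). The median log2 fold change of the 10 genes was -1.42 after APAP, -1.51 after TAA, -1.57 after CCl4, -2.26 after GAL and -2.06 after ConA, beside medians between 0.03 and 0.10 over all genes tested. It was -0.19 after ANIT and -0.51 after MDA, beside -0.01 and 0.03 over all genes.

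Against all 17 vehicle mice ANIT raised 1 of the 10 and lowered 3 (28% of all genes changed, 13.5% higher and 14.5% lower), and MDA raised 1 and lowered 4 (34.2%, with 17.2% higher and 17.1% lower). APAP lowered 9 (33.4%, with 18.1% higher and 15.3% lower), TAA 9 (49.7%, with 25.2% higher and 24.5% lower), CCl4 10 (53.4%, with 26.2% higher and 27.2% lower) and GAL 9 (52.5%, with 25.1% higher and 27.5% lower), and these raised none. ConA raised 1 and lowered 8 (68%, with 34.3% higher and 33.7% lower). The further calls were Cyp7a1 after CCl4, Nr1h4 after GAL, and Cyp7b1 and Cyp27a1 after ConA. The call of Cyp7a1 after ANIT was lost. The groups were also compared mouse by mouse. Every treated mouse was below every route vehicle mouse for 1 of the 10 genes after ANIT (4.97% of all genes tested), 1 after MDA (3.02%), 4 after APAP (4.61%) and 6 after TAA (10.2%). After the injected compounds, which had only 2 controls to clear, it was 9 after CCl4 (19.9%), 8 after GAL (25.6%) and 6 after ConA (21.5%). Against all 17 vehicle mice it was 1 after ANIT (4.19%), 1 after MDA (2.42%), 4 after APAP (3.78%), 6 after TAA (8.77%), 6 after CCl4 (9.19%), 8 after GAL (14%) and 5 after ConA (14.9%). With the route vehicle, APAP mouse 1 alone kept Cyp7a1, Cyp7b1, Cyp27a1 and Slc27a5 out of the APAP count of 4. The share of all genes without that mouse was not computed.

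The counts changed within a range of mouse numbers, where fewer mice are compared. Among mice numbered 1 to 4, APAP lowered 2 of the 10 genes (6.28% of all genes called), TAA 7 (19.4%) and MDA 1 (10.4%). For APAP the lost calls, with their log2 fold changes, were Cyp7a1 (-5.44), Cyp7b1 (-1.36), Cyp27a1 (-1.19), Hsd3b7 (-1.08), Baat (-0.70), Slc27a5 (-1.20) and Nr1h4 (-1.14), with edgeR adjusted p from 0.0533 to 0.267. For MDA they were Cyp7a1 (-4.14), Cyp7b1 (-0.90), Slc27a5 (-0.82) and Nr0b2 (1.32), with edgeR adjusted p from 0.0515 to 0.189, and for TAA Cyp27a1 (-0.74, adjusted p = 0.155) and Slc27a5 (-0.90, 0.109). For ANIT the call of Nr0b2 was lost (1.44, edgeR adjusted p = 0.096). Each kept the sign it had with all mice. Among mice numbered above 4, Cyp8b1 (-5.13, edgeR adjusted p = 2.37e-06) and Nr1h4 (-0.68, 0.0174) after MDA, Nr0b2 after APAP (-1.77, 0.0107) and Nr1h4 after GAL (-1.67, 0.035) were gained. Lost there were Cyp7b1 after MDA (-1.03, adjusted p = 0.0556), Nr1h4 after APAP (-0.51, 0.051), and Cyp7a1 (-4.95, 0.0586) and Baat (-0.92, 0.0881) after ConA.

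**Figure D2:**
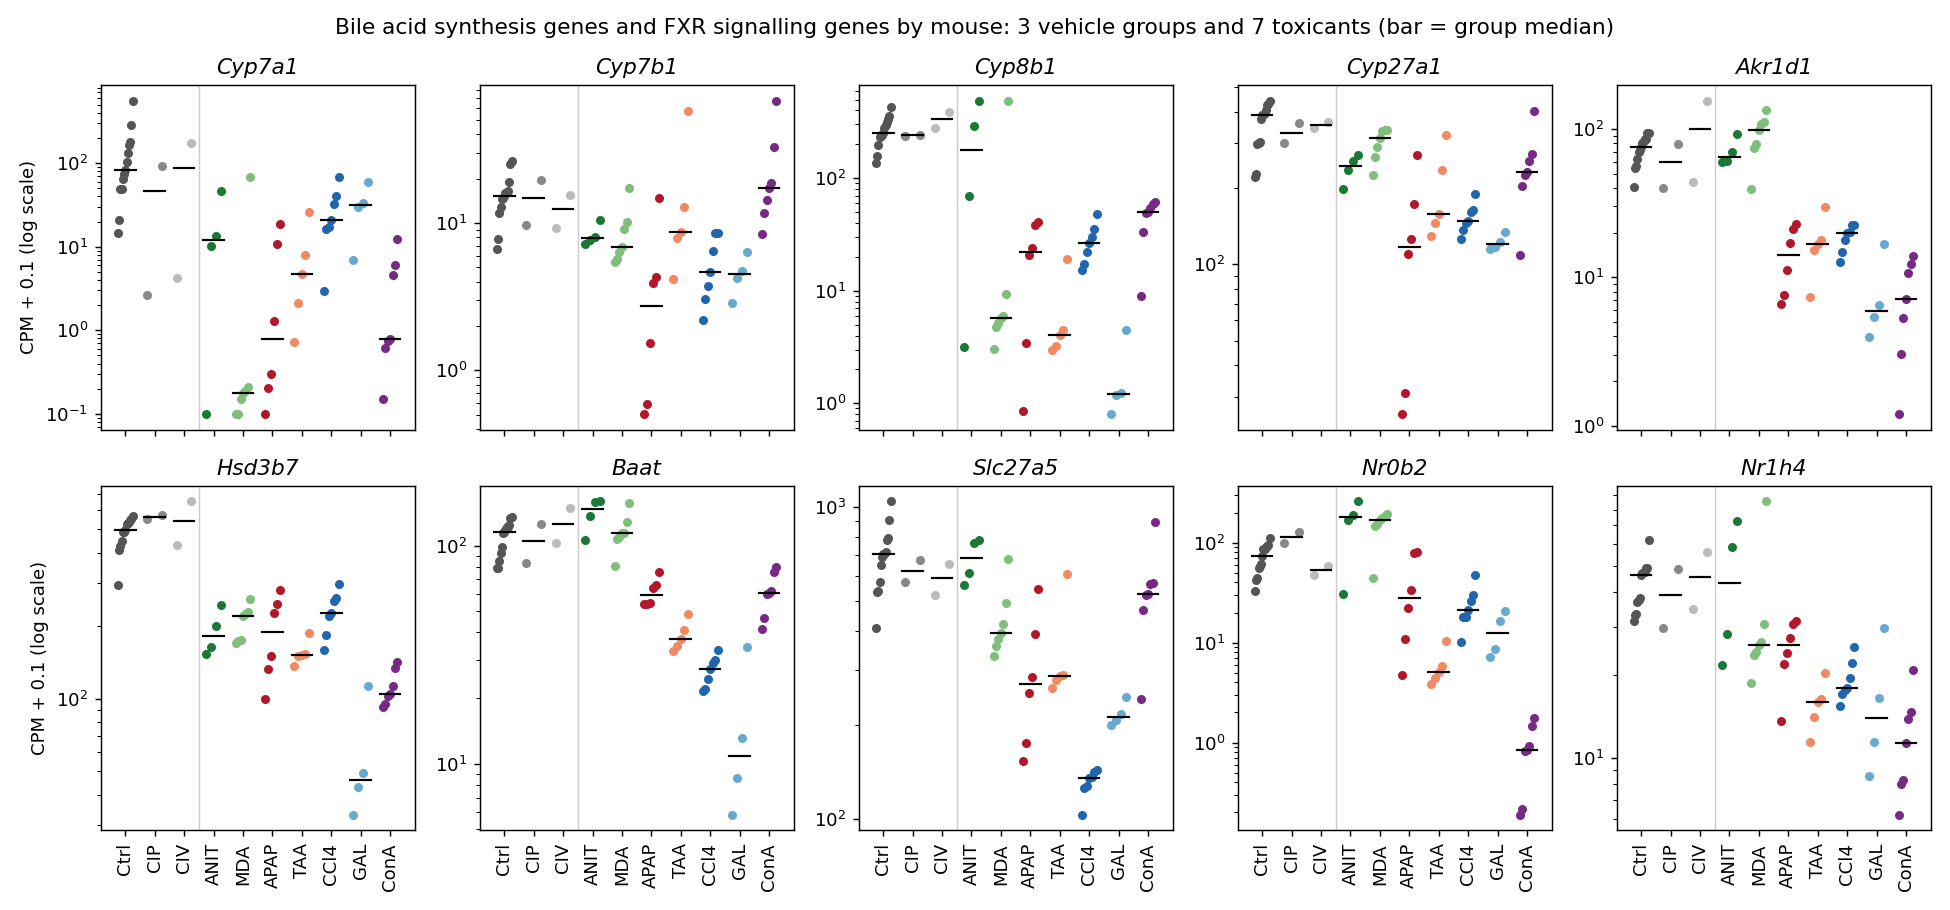
Each panel plots 1 of the 10 genes, with the level in CPM plus a small constant on a log scale and the 3 vehicle groups (Ctrl, gavage; CIP, intraperitoneal; CIV, intravenous) left of the grey line, the 7 toxicants right of it. Points are single mice, spread sideways by level, and bars are group medians: the Hsd3b7 points of every toxicant except CCl4 lie below all vehicle points, while Nr0b2 points lie above them for 3 of 4 ANIT and 6 of 7 MDA mice.

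**Figure D3:**
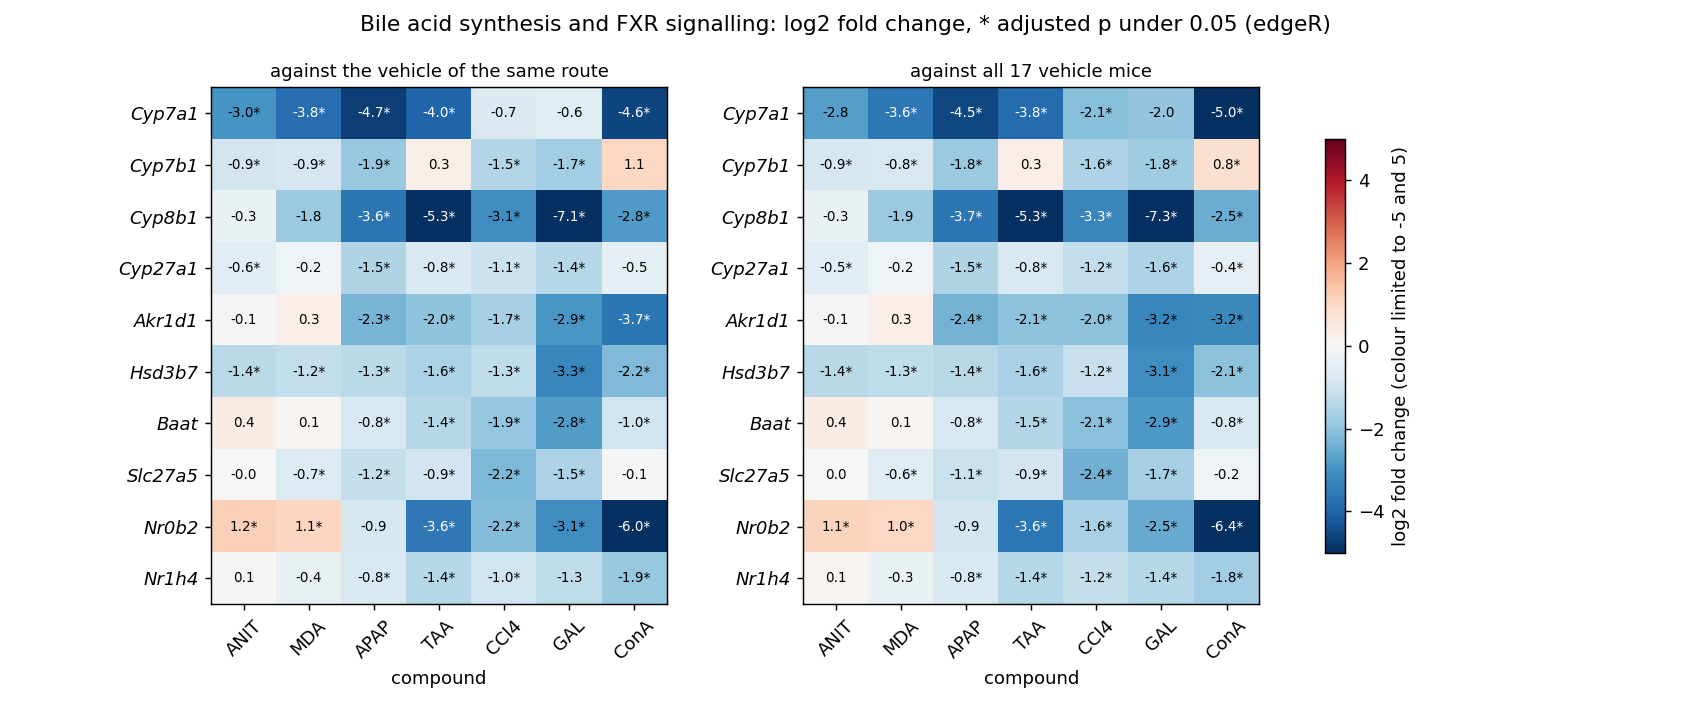
Log2 fold changes of the 10 genes for the 7 toxicants, against the vehicle of the route (left) and against all 17 vehicle mice (right), with a star where edgeR's adjusted p was under 0.05. Blue is lower and red higher than vehicle, and the Hsd3b7 line carries a star for all 7 toxicants in both maps.

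Markers of liver cell types moved as well, and are given as levels summed over each list, with edgeR calls against the vehicle of the route. The 8 hepatocyte markers summed to 28168 to 39271 CPM after CCl4 and 28844 to 35804 after GAL, against 68470 and 72458 after intraperitoneal saline, with 7 and 8 of 8 lower. They lay between 56398 and 137520 CPM in the other groups, and none was at 0 in any mouse. Mouse 1 stood above the rest of its group for this sum in gavage vehicle (123360 CPM, the others up to 90988) and ANIT (123490, up to 79708). The same held in APAP (122240, up to 82029), TAA (122410, up to 84978) and CCl4 (39271, up to 34495). MDA mouse 1 was instead lowest of its group (69761) and MDA mouse 2 highest. The 5 pericentral markers summed to 3206 to 5235 CPM in gavage vehicle mice, 82.6 to 4012 after APAP (4 of 5 lower), 1544 to 5394 after TAA (3 of 5 lower) and 618 to 990 after CCl4 (4 of 5 lower). The ends of these ranges belong to single mice, since the 4012 and 5394 CPM are those of APAP mouse 1 and TAA mouse 1. GAL mice had 1813 to 2540 CPM of them (4 of 5 lower), MDA mice 1292 to 5930 (3 lower), and ANIT and ConA mice 2027 to 5795 and 1501 to 5540 (1 lower each). All 5 periportal markers were lower after TAA, CCl4 and GAL, at 1413 to 3476, 1311 to 1920 and 710 to 1164 CPM, against 3922 to 9197 in gavage vehicle mice and 5228 to 6586 after intraperitoneal saline. APAP and ConA lowered 3 and 2 of these, ANIT and MDA 1 each.

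Among other cells, all 5 Kupffer cell markers fell after ConA, to 23.0 to 49.8 CPM against 277 and 280. All 5 neutrophil markers rose after TAA, to 158 to 825 CPM against 2.04 to 62.2, and 3 of 4 tested rose after ConA, to 126 to 286 against 7.92 and 8.98. Their sums were 10.6 to 73.0 CPM after CCl4 and 25.3 to 40.7 after GAL, against 5.53 and 5.42 after intraperitoneal saline. APAP mice 8 and 11 had 196 and 263 CPM and MDA mice 7 and 12 had 132 and 117. The other APAP and MDA mice and all ANIT mice lay within the gavage vehicle range. Monocyte and macrophage markers rose after APAP (4 of 5), TAA (3 of 5) and GAL (3 of 5). Of the 5 stellate markers, 3 rose after APAP, while 4 fell after MDA and 3 after ANIT. Their sums overlapped those of gavage vehicle mice (37.2 to 116 CPM, median 69.5) in all 3 groups. They were 80.8 to 155 after APAP, 27.6 to 89.5 (median 59.4) after MDA and 49.6 to 128 (median 72.6) after ANIT. Dcn, the largest term of that sum, was not called after ANIT. Sinusoidal endothelial markers fell after TAA (4 of 5), CCl4 and ConA (3 of 5 each), and cholangiocyte markers rose after APAP, TAA and ConA (2 of 5 tested each), with sums after APAP and TAA that overlapped those of gavage vehicle mice. T cell and B cell markers summed to at most 13.7 and 18.3 CPM in any mouse. Of the enterocyte markers, Sis and Fabp6 were at 0 in some mice of every group. Reads of mitochondrial genes made up 5.12% to 39.3% of the total, and 14.6% to 39.3% after ConA. The part of these cells, and of RNA quality, in the changes of the 10 genes was not tested.

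Nr1h4, the gene of the receptor FXR (ENSMUSG00000047638), fell after 4 of 7 toxicants and rose after none. Gavage vehicle mice had 31.2 to 61.8 CPM with a median of 46.2. After TAA the 5 mice had 15.8, 14, 16.2, 20.3 and 11.3 CPM, all below every vehicle mouse, and the log2 fold change was -1.41 ± 0.17 (edgeR adjusted p = 9.34e-07). After ConA levels were 6.09 to 20.8 CPM with a median of 11.2, against 34.7 and 55.8 CPM in the intravenous saline mice, a change of -1.89 ± 0.36 (edgeR adjusted p = 0.0031). The ConA and TAA groups thus lay below the whole vehicle range. APAP mice were at 13.5 to 31.4 CPM, touching the lowest vehicle mouse, with a change of -0.76 ± 0.17 (edgeR adjusted p = 0.00171). CCl4 mice had 15.3 to 25.1 CPM against 48.5 and 29.5 CPM after intraperitoneal saline, a change of -1.0 ± 0.21 (edgeR adjusted p = 0.00526). That last call was lost when intraperitoneal saline mouse 7 was left out, at -0.57 (adjusted p = 0.116). The 4 GAL mice had 29.6, 11.3, 8.46 and 16.4 CPM, and mouse 2 alone reached a vehicle value. The GAL change was -1.27 ± 0.50 (edgeR adjusted p = 0.1) and -1.70 (adjusted p = 0.0138) without mouse 2. Against all vehicles it was -1.41 ± 0.25 (edgeR adjusted p = 5.25e-05). It was not called after ANIT (0.08 ± 0.24, edgeR adjusted p = 0.844). MDA mouse 1 had 85.5 CPM and the other 6 had 18.7 to 30.5, below every gavage vehicle mouse. The MDA change was -0.35 ± 0.23 (edgeR adjusted p = 0.262), and -0.79 (adjusted p = 0.000172) without mouse 1.

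Nr0b2, the gene of the FXR-induced repressor SHP (ENSMUSG00000037583), moved in both directions and was called after 6 of 7 toxicants, with either control set. Its range over gavage vehicle mice was 32.7 to 112 CPM with a median of 73.5. Of the 4 ANIT mice, 3 had 168, 191 and 259 CPM, above every gavage mouse, while mouse 4 had 30.3 CPM, below every gavage mouse. The ANIT change was 1.18 ± 0.35 (edgeR adjusted p = 0.0181). The MDA group had the same shape. Mouse 1 had 43.9 CPM, inside the vehicle range, and the other 6 had 147 to 193 CPM, above it, for a change of 1.09 ± 0.24 (edgeR adjusted p = 0.00144). The ANIT call was lost without mouse 2 (1.09, adjusted p = 0.0604) and without mouse 3 (0.86, adjusted p = 0.139), and among mice numbered 1 to 4 it was 1.44 (adjusted p = 0.096). The MDA change was 1.32 (adjusted p = 0.072) among mice numbered 1 to 4 and 1.02 (adjusted p = 0.025) among those above 4.

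Nr0b2 fell after the other toxicants that changed it, furthest after ConA. The 7 ConA livers had 0.0894 to 1.65 CPM (2 of them at 1 estimated count) with a median of 0.749, against 47.4 and 58.2 CPM after intravenous saline, a change of -5.96 ± 0.59, or 62.2-fold (edgeR adjusted p = 8.67e-05). TAA livers had 4.30, 10.3, 5.69, 5.01 and 3.79 CPM, a change of -3.57 ± 0.33 (edgeR adjusted p = 3.73e-08). GAL livers had 20.8, 7.02, 8.46 and 16.4 CPM against 128 and 99.4 CPM, a change of -3.12 ± 0.44 (edgeR adjusted p = 0.00522). CCl4 livers had 10.0 to 47.7 CPM with a median of 21.1, a change of -2.18 ± 0.42 (edgeR adjusted p = 0.00329). In all of these except CCl4, no treated mouse reached any of the 17 vehicle mice. The APAP group was spread wide, with 4.59, 79.5, 81.1, 33.4, 22.0 and 10.8 CPM in mice 1, 2, 4, 6, 8 and 11, and was not called (-0.88 ± 0.43, edgeR adjusted p = 0.13). It was -0.06 (adjusted p = 0.97) among APAP mice numbered 1 to 4 and -1.77 (adjusted p = 0.011) among those above 4, and without mouse 4 it was -1.24 (adjusted p = 0.0421).

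In the order of group means, ANIT (162 ± 95.8 CPM, SD, n = 4) and MDA (152 ± 50.4, n = 7) headed Nr0b2, ahead of intraperitoneal saline (114 ± 20.3, n = 2) and gavage vehicle (71.5 ± 24.2, n = 13). Neighbours in that order differed by more than the larger of their SDs between intraperitoneal saline and gavage vehicle, between GAL (13.2 ± 6.54, n = 4) and TAA (5.81 ± 2.59, n = 5), and between TAA and ConA (0.788 ± 0.580, n = 7). For Nr1h4, and likewise for Cyp7a1, Cyp8b1 and Cyp27a1, no neighbouring groups did.

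Cyp7a1, the enzyme that opens the classical route (ENSMUSG00000028240), fell after all 4 gavage compounds and after ConA. APAP mice 1, 2, 4, 6, 8 and 11 had 18.7, 1.19, 0.197, 10.7, 0 and 0.101 CPM, a change of -4.72 ± 1.16 (edgeR adjusted p = 0.00423), and of -5.79 without mouse 1. TAA mice had 2.03, 0.629, 7.96, 25.9 and 4.55 CPM, a change of -4.0 ± 0.95 (edgeR adjusted p = 0.0016). Both groups overlapped the lowest gavage mice only at their upper end. APAP mice 8 and 11, and ANIT mouse 1 below, had at most 3 estimated counts, so these fitted changes depend in part on values too low to measure. The TAA change was -7.83 among mice numbered 1 to 4 and -2.32 among those above 4, both called, and -5.12 without mouse 7. ANIT mice had 0, 13.5, 10.1 and 46.8 CPM, a change of -2.95 ± 1.06 (edgeR adjusted p = 0.0459). The ANIT call was lost without mouse 1, 2 or 3 (adjusted p of 0.0654, 0.112 and 0.135) and against all vehicles (-2.76, adjusted p = 0.0844), and was -4.08 (adjusted p = 0.046) among mice numbered 1 to 4 and -4.10 without mouse 4.

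The MDA group was split for Cyp7a1. Mouse 1 had 67.5 CPM, and the other 6 had 0 to 0.109 CPM, at or under 3 estimated counts each. The change over all 7 mice was -3.82 ± 1.32 (edgeR adjusted p = 0.0292), and it was -11.19 (adjusted p = 2.56e-07) without mouse 1. At 3 counts the highest detection floor of those 6 libraries was 0.256 CPM. The gavage mean of 137 CPM was thus at least 535-fold higher, and the lowest gavage mouse at least 56.0-fold higher, than any of the 6. Without mouse 8 the call was lost (adjusted p = 0.0509).

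After the injected compounds Cyp7a1 depended on which vehicle mouse was used. ConA livers had 0.05 (1 estimated count) to 12.1 CPM with a median of 0.681, a change of -4.59 ± 1.31 (edgeR adjusted p = 0.0212), but of -0.21 (adjusted p = 0.944) without intravenous saline mouse 8. It was -5.55 without saline mouse 7, and the fold was also over 1.5 times larger without ConA mouse 2. Against all vehicles it was -5.04 ± 1.03 (edgeR adjusted p = 0.000119). CCl4 livers had 2.87 to 67.9 CPM, a change of -0.74 ± 1.07 (edgeR adjusted p = 0.634) against the 2 saline mice and -2.13 ± 0.76 (edgeR adjusted p = 0.021) against all vehicles. GAL livers had 58.9, 29.5, 6.76 and 33.2 CPM, a change of -0.61 ± 1.21 (edgeR adjusted p = 0.733) and of -1.95 ± 0.98 (edgeR adjusted p = 0.101) against all vehicles. Leaving out 1 mouse moved the CCl4 change over -1.69 to 3.50 and the GAL change over -1.58 to 3.70, with the ends set by which saline mouse was left out, and none of these was called. The CCl4 and GAL groups both lay within the range of the vehicle mice.

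Cyp8b1, the sterol 12-alpha-hydroxylase (ENSMUSG00000050445), fell after 5 of 7 toxicants, by at least 2.85 on the log2 scale in each. Gavage mice had 137 to 431 CPM with a median of 252, and the 4 injected vehicle mice had 237 to 390. GAL livers had 4.42, 1.13, 0.705 and 1.08 CPM, a change of -7.05 ± 0.75, or 133-fold (edgeR adjusted p = 0.00268), and of -7.93 without mouse 2. TAA livers had 19.1, 3.14, 4.40, 3.98 and 2.86 CPM, a change of -5.25 ± 0.50 (edgeR adjusted p = 6.29e-08), and of -6.17 without mouse 1. These groups were far below all 17 vehicle mice, and so were the next 3. APAP mice had 0.745 to 40.3 CPM (-3.63 ± 0.58, edgeR adjusted p = 9.83e-05), CCl4 mice 15.2 to 48.0 CPM (-3.09 ± 0.32, edgeR adjusted p = 0.000113) and ConA mice 8.84 to 60.7 CPM (-2.85 ± 0.47, edgeR adjusted p = 0.00136). In the MDA group, mouse 1 had 483 CPM, above every vehicle mouse, and the other 6 had 2.90 to 9.33, below every vehicle mouse. The change over all 7 was -1.84 ± 0.86 and was not called by edgeR (adjusted p = 0.106), whereas it was -5.57 (adjusted p = 9.80e-11) without mouse 1, and DESeq2 called it with all 7 mice (-3.03, adjusted p = 3.41e-05). ANIT mice had 3.04, 289, 70.1 and 489 CPM, which spans from far below to above the vehicle range, and were not called (-0.32 ± 0.61, edgeR adjusted p = 0.743). That value ran from -1.13 without mouse 4 to 0.09 without mouse 1, and was called in no case.

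Cyp27a1, the mitochondrial sterol 27-hydroxylase (ENSMUSG00000026170), fell after 5 of 7 toxicants, with log2 fold changes between -1.50 and -0.56. Gavage vehicle mice had 220 to 442 CPM with a median of 387. GAL livers had 134, 115, 123 and 117 CPM (-1.44 ± 0.16, edgeR adjusted p = 0.00293) and CCl4 livers 125 to 190 CPM (-1.08 ± 0.14, edgeR adjusted p = 0.000406), both below every vehicle mouse. APAP livers had 25.6 to 271 CPM (-1.50 ± 0.37, edgeR adjusted p = 0.00414), TAA livers 323, 146, 158, 129 and 235 CPM (-0.78 ± 0.21, edgeR adjusted p = 0.00518) and ANIT livers 255, 271, 234 and 198 CPM (-0.56 ± 0.18, edgeR adjusted p = 0.027). These 3 groups overlapped the vehicle mice, APAP only through mouse 1 (271 CPM), with the other APAP mice at most at 172. Against all vehicles the APAP change was -1.49, and -1.90 without mouse 1. The ANIT call was lost without ANIT mouse 3 or 4. MDA livers had 226 to 340 CPM (-0.23 ± 0.14, edgeR adjusted p = 0.227). ConA livers had 108 to 404 CPM and were not called against intravenous saline (-0.49 ± 0.36, edgeR adjusted p = 0.327), but were against all vehicles (-0.42 ± 0.17, edgeR adjusted p = 0.03).

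Cyp7b1, the oxysterol 7-alpha-hydroxylase (ENSMUSG00000039519), fell after 5 of 7 toxicants and had 1 high mouse after TAA and 2 after ConA. In gavage vehicle mice it was at 6.56 to 26.1 CPM with a median of 15.1. In the TAA group mouse 1 had 57.0 CPM and the other 4 had 4.09, 7.82, 8.64 and 12.7. The TAA change was 0.30 ± 0.44 (edgeR adjusted p = 0.6) with mouse 1 and -0.86 (adjusted p = 0.0343) without it, so its direction rests on that mouse. In the ConA group mice 2 and 3 had 67.6 and 32.8 CPM, above all 17 vehicle mice, and the median was 17.2. Against intravenous saline (9.18 and 15.4 CPM) the ConA change was 1.05 ± 0.74 (edgeR adjusted p = 0.301). Against all vehicles it was 0.80 ± 0.30 (edgeR adjusted p = 0.0207), 0.03 (adjusted p = 0.913) with library totals as the scale, and -0.10 (adjusted p = 0.773) among mice numbered above 4.

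The falls came after the other 5 toxicants. APAP mouse 1 had 14.7 CPM and the other 5 lay below it, down to 0.406, with a group median of 2.62. That change was -1.89 ± 0.56 (edgeR adjusted p = 0.0146), and -2.90 (adjusted p = 0.000221) without mouse 1. GAL livers had 2.77, 4.63, 6.25 and 4.16 CPM (-1.73 ± 0.41, edgeR adjusted p = 0.0245) and CCl4 livers 2.10 to 8.40 CPM (-1.47 ± 0.48, edgeR adjusted p = 0.0395), against 19.6 and 9.64 CPM after intraperitoneal saline. These last 2 calls were fragile. Without saline mouse 7 both were lost, at -0.84 after CCl4 and -1.05 after GAL (edgeR adjusted p = 0.387 and 0.179). The CCl4 call was also lost without CCl4 mouse 5, 8, 10 or 12 or saline mouse 8, at changes of -1.38 to -1.90 (adjusted p from 0.052 to 0.0653). The GAL call was lost without GAL mouse 4 or 8 too, at -1.74 and -1.69 (adjusted p = 0.0609 and 0.069). Against all vehicles the changes were -1.56 ± 0.28 after CCl4 (edgeR adjusted p = 3.58e-05) and -1.78 ± 0.32 after GAL (edgeR adjusted p = 6.36e-05). ANIT livers had 7.59, 10.3, 7.89 and 7.09 CPM (-0.91 ± 0.29, edgeR adjusted p = 0.0262) and MDA livers 5.30 to 17.1 CPM (-0.85 ± 0.27, edgeR adjusted p = 0.0162), with every ANIT mouse inside the vehicle range and 3 of 7 MDA mice below it. Leaving out ANIT mouse 1, 3 or 4 ended the ANIT call.

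Hsd3b7, the steroid dehydrogenase of the ring steps (ENSMUSG00000042289), was the gene of the 10 that fell after all 7 toxicants, with either control set. Vehicle mice were close together, at 294 to 566 CPM after gavage (485 ± 75.2, SD, n = 13) and 430 to 651 after injection. The 4 ANIT mice had 163, 242, 153 and 199 CPM, a change of -1.35 ± 0.16 (edgeR adjusted p = 1.34e-05). The 7 MDA mice had 169 to 258 CPM, a change of -1.23 ± 0.12 (edgeR adjusted p = 3.02e-07). This was the 1 gene in which every ANIT and every MDA mouse, MDA mouse 1 and ANIT mouse 4 included, was below all 17 vehicle mice. APAP livers had 99.5 to 279 CPM (-1.33 ± 0.19, edgeR adjusted p = 2.73e-05), TAA livers 186, 137, 152, 150 and 151 (-1.59 ± 0.14, edgeR adjusted p = 1.90e-08) and CCl4 livers 159 to 298 (-1.27 ± 0.19, edgeR adjusted p = 0.000895). ConA livers had 92.4 to 142 CPM (-2.22 ± 0.23, edgeR adjusted p = 9.89e-05) and GAL livers 112, 49.1, 33.0 and 43.2 (-3.25 ± 0.46, edgeR adjusted p = 0.00529). Among group means, the steps from vehicle to CCl4, from TAA to ConA and from ConA to GAL were each larger than the SDs of both neighbours.

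Akr1d1, the steroid 5-beta-reductase (ENSMUSG00000038641), fell after the 5 toxicants other than ANIT and MDA. Gavage vehicle mice had 40.7 to 93.9 CPM with a median of 75.1. ConA livers had 1.10 to 13.8 CPM against 43.6 and 155 CPM (-3.67 ± 0.66, edgeR adjusted p = 0.00219) and GAL livers 16.7, 5.29, 3.85 and 6.40 CPM against 79.3 and 39.8 CPM (-2.91 ± 0.60, edgeR adjusted p = 0.0159). APAP livers had 6.51 to 22.8 CPM (-2.33 ± 0.26, edgeR adjusted p = 2.45e-06), TAA livers 29.6, 7.30, 15.1, 17.8 and 16.6 (-2.02 ± 0.26, edgeR adjusted p = 2.71e-06) and CCl4 livers 12.5 to 22.5 (-1.66 ± 0.26, edgeR adjusted p = 0.00117). In all 5 groups every mouse was below every vehicle mouse. Without intraperitoneal saline mouse 7 the CCl4 change was -1.04 and still called, and the GAL change was -2.25 and not called (adjusted p = 0.104). The GAL call was also lost without GAL mouse 8 (-2.82, adjusted p = 0.0505), and the change was -3.53 without GAL mouse 2. The ConA change was -2.52 (adjusted p = 0.0498) without intravenous saline mouse 8 and -4.29 without mouse 7. ANIT livers had 91.7, 69.6, 60.2 and 59.4 CPM and MDA livers 39.4 to 134 CPM, with changes of -0.05 ± 0.18 (edgeR adjusted p = 0.856) and 0.33 ± 0.18 (edgeR adjusted p = 0.174), the latter called without MDA mouse 7 (0.45, adjusted p = 0.0303).

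Slc27a5, the bile acid CoA ligase (ENSMUSG00000030382), fell after 5 toxicants. The gavage vehicle range was 410 to 1039 CPM with a median of 707. CCl4 livers were lowest, at 103 to 143 CPM against 673 and 576 CPM after intraperitoneal saline, a change of -2.23 ± 0.12 (edgeR adjusted p = 5.51e-06). GAL livers had 246, 216, 199 and 207 CPM (-1.53 ± 0.16, edgeR adjusted p = 0.00258). Neither group reached a vehicle mouse. APAP livers had 153 to 546 CPM (-1.18 ± 0.24, edgeR adjusted p = 0.00107), TAA livers 610, 289, 279, 261 and 287 (-0.95 ± 0.22, edgeR adjusted p = 0.00154) and MDA livers 332 to 680 with a median of 392 (-0.67 ± 0.17, edgeR adjusted p = 0.00394). In TAA, MDA and APAP, mouse 1 was highest, inside the vehicle range. The other APAP mice had at most 392 CPM, below every vehicle mouse. Against all vehicles the APAP change was -1.13, and -1.40 without mouse 1. ANIT livers had 562, 780, 611 and 763 CPM (-0.03 ± 0.19, edgeR adjusted p = 0.918) and ConA livers 241 to 897 CPM (-0.07 ± 0.37, edgeR adjusted p = 0.9).

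Baat, which conjugates bile acids to taurine or glycine (ENSMUSG00000039653), fell after the same number of toxicants, 5. Gavage vehicle mice had 78.9 to 135 CPM with a median of 115. GAL livers had 34.2, 8.53, 5.74 and 13 CPM (-2.79 ± 0.66, edgeR adjusted p = 0.0249), CCl4 livers 21.5 to 33.2 (-1.94 ± 0.18, edgeR adjusted p = 6.12e-05) and TAA livers 48.3, 32.8, 41.1, 37.1 and 34.7 (-1.43 ± 0.15, edgeR adjusted p = 1.96e-07). APAP livers had 53.7 to 75.5 CPM (-0.80 ± 0.14, edgeR adjusted p = 0.000174). In these 4 groups every mouse was below every vehicle mouse. ConA livers had 41.5 to 79.5 CPM (-1.0 ± 0.24, edgeR adjusted p = 0.0106), a call lost without intravenous saline mouse 8 (-0.73, adjusted p = 0.109). The GAL call was lost without either saline mouse or without GAL mouse 4 or 8 (adjusted p from 0.0595 to 0.126) and was -3.53 without mouse 2, and against all vehicles it was -2.88 ± 0.34 (edgeR adjusted p = 2.37e-07). ANIT livers had 106, 159, 136 and 159 CPM (0.37 ± 0.15, edgeR adjusted p = 0.0794, and called at 0.48 with adjusted p = 0.0302 without mouse 1) and MDA livers 80.7 to 156 CPM (0.09 ± 0.13, edgeR adjusted p = 0.616).

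The ANIT and MDA groups are best read mouse by mouse, because their members of the FXR axis did not lie in 1 cluster. Slc51b encodes a subunit of a bile acid exporter, and Abcb11 encodes the bile salt export pump. ANIT mice 1, 2, 3 and 4 had 72.3, 5.61, 32.2 and 1.07 CPM of Slc51b, against 0.373 to 6.79 in gavage vehicle mice, and 286, 53.7, 118 and 27.0 CPM of Abcb11, against 72.9 to 149. Mouse 1 was thus highest for both, then mouse 3, mouse 2 and mouse 4. Over the same mice Cyp7a1 was 0, 13.5, 10.1 and 46.8 CPM and Cyp8b1 was 3.04, 289, 70.1 and 489 CPM, which is the reverse order. Nr0b2 followed neither order among mice 1 to 3 but was lowest in mouse 4. In the MDA group, mouse 1 had 1.75 CPM of Slc51b and 42.6 CPM of Abcb11, and the other 6 had 50.5 to 121 and 92.7 to 266 CPM. Mouse 1 was the mouse with high Cyp7a1, Cyp8b1 and Nr1h4 (85.5 CPM, against 18.7 to 30.5 in the other 6) and with Nr0b2 in the vehicle range. It had 5930 CPM summed over the 5 pericentral hepatocyte markers, against 1292 to 2867 in the other 6 and 3206 to 5235 in gavage vehicle mice. ANIT mouse 1 had 2027 CPM of those markers and mice 2, 3 and 4 had 5795, 4057 and 4888. The part of these markers in the results was not tested. No p-value is attached to these orders, since 4 mice were ranked after their values had been seen.

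**Figure D4:**
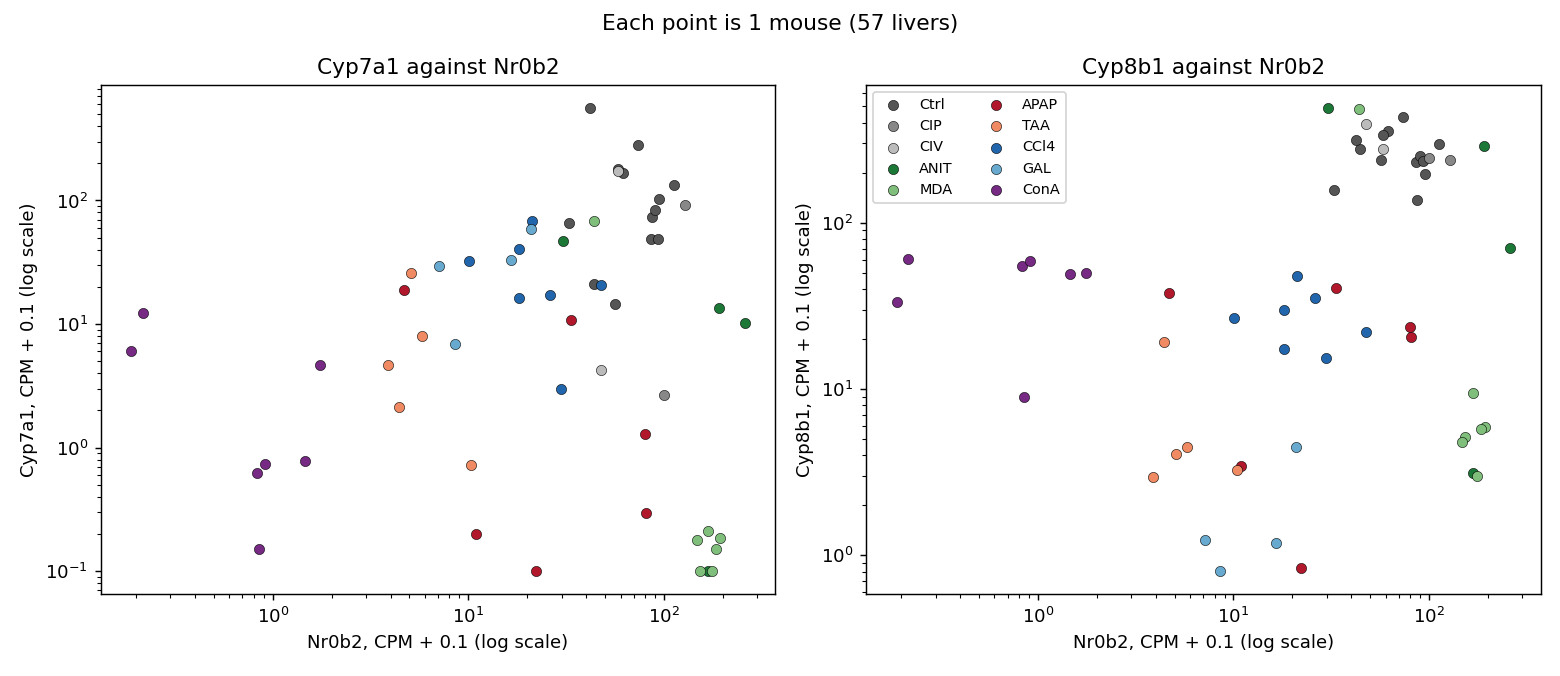
Cyp7a1 (left) and Cyp8b1 (right) are plotted against Nr0b2 in 57 mice, 1 point a mouse coloured by group, all in CPM plus a small constant on log axes. High Nr0b2 goes with very low Cyp7a1 and Cyp8b1 in 6 MDA mice and 1 ANIT mouse, but ANIT mice 2 and 3 have high Nr0b2 with Cyp8b1 of 289 and 70.1 CPM. Every ConA and TAA mouse lies below all vehicle mice for Nr0b2 and Cyp8b1. For Cyp7a1 some of them lie within the vehicle range, such as TAA mouse 7 at 25.9 CPM.

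Among the 13 gavage vehicle mice, no relation between Nr0b2 and 3 synthesis genes passed a test. On the log2(CPM + 1) scale Pearson's r was 0.02 with Cyp7a1, 0.05 with Cyp7b1 and -0.02 with Cyp8b1, with permutation p of 0.958, 0.861 and 0.955 (all 0.958 after adjustment over the 3 relations). Spearman's rho was 0.03, -0.03 and -0.16 (permutation p of 0.935, 0.934 and 0.590). Without the 2 mice farthest from the median of Nr0b2, r was 0.35, 0.30 and -0.34 (permutation p of 0.290, 0.376 and 0.307). Within the 9 mice numbered above 4, r was 0.55, 0.16 and 0.23 (exact permutation p of 0.110, 0.705 and 0.567) and rho was 0.68, 0.18 and 0.23 (exact permutation p of 0.0503, 0.644 and 0.552, the lowest 0.151 after adjustment over the 3 relations). The 4 mice of the lower range are too few.

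Compounds were also set against each other. ANIT and MDA, 2 compounds known to injure bile ducts, did not differ in any of the 10 genes by edgeR (0 of 10 called, beside 0% of 13360 genes), and DESeq2 and limma called 0 of the 10 too. Slc27a5 was the 1 gene with an unadjusted p under 0.05, at 0.64 ± 0.20 higher in ANIT (p = 0.00786, adjusted 0.458). Over all genes 1253 had an unadjusted p under 0.05, and DESeq2 called 78. For Cyp8b1 the ANIT minus MDA difference was 1.52 ± 1.52, an error too wide to show that the compounds act alike, and it ran from 0.72 without ANIT mouse 4 to 5.25 without MDA mouse 1, with no call in either. APAP and TAA, both known to injure pericentral hepatocytes, differed in 0 of 10 by edgeR, beside 2.62% of all genes (1.01% higher and 1.61% lower), with 4 at an unadjusted p under 0.05. Nr0b2 was 2.72 ± 0.67 higher after APAP (edgeR adjusted p = 0.0546) and Baat 0.66 ± 0.16 higher (edgeR adjusted p = 0.0522). DESeq2 called both and limma called Baat. Without APAP mouse 1, edgeR called 14.4% of all genes and 4 of the 10, namely Cyp7b1 (-3.14), Baat (0.59), Nr0b2 (2.95) and Nr1h4 (0.80).

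Set together against APAP and TAA, the ANIT and MDA mice had higher levels of 6 of the 10 genes and lower levels of none, beside 31.5% of all genes called (13.8% higher and 17.7% lower). Nr0b2 was 3.37 ± 0.45 higher (edgeR adjusted p = 2.11e-05), Akr1d1 2.33 ± 0.26 (2.92e-06), Baat 1.36 ± 0.12 (1.15e-07), Nr1h4 0.96 ± 0.26 (0.00821) and Slc27a5 0.74 ± 0.21 (0.0108). Cyp8b1 was 3.39 ± 1.02 higher (edgeR adjusted p = 0.0152), but 1.53 (adjusted p = 0.0792) without MDA mouse 1. Cyp7a1, Cyp7b1, Cyp27a1 and Hsd3b7 were not called, but Cyp27a1 was called without APAP mouse 1 (0.97, adjusted p = 0.00915) and without TAA mouse 1 (0.90, adjusted p = 0.0267). Among mice numbered 1 to 4 alone, 3 of the 10 were called, beside 10.5% of all genes, and Cyp8b1, Slc27a5 and Nr1h4 were not. CCl4 and GAL, the 2 intraperitoneal compounds, differed in 4 of 10, beside 42.5% of all genes (22.2% higher and 20.3% lower). Cyp8b1 was 3.87 ± 0.54 higher after CCl4 (edgeR adjusted p = 0.000177), Hsd3b7 1.89 ± 0.31 higher (0.000551) and Akr1d1 1.15 ± 0.35 higher (0.0192), while Slc27a5 was 0.80 ± 0.10 lower (9.53e-05, a log2 fold change of -0.80). Leaving out GAL mouse 2 raised the Cyp8b1 difference to 4.75 and that of Akr1d1 to 1.77, and Baat (1.49) and Nr1h4 (0.60) were then called. Leaving out GAL mouse 4, 7 or 8 ended the Akr1d1 call.

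The other genes of the pathway were taken from 3 lists set by name. Of the 13 other regulators tested, ANIT and MDA each raised 4 and lowered none, while TAA lowered 11, CCl4 7, APAP 5 and GAL 4, and raised none. ConA raised 1 and lowered 3. The shares of all genes called in these comparisons, with all mice and before any change of scale, are those given for the 10 genes. The GAL count of 4 fell to 0 when either saline mouse was left out and to 1 without GAL mouse 4, 7 or 8, and rose to 8 without GAL mouse 2, the CCl4 count was 5 without saline mouse 7, and MDA raised 3 and lowered 3 without mouse 1. With library totals as the scale, the counts lowered were 8 after TAA, 3 after CCl4 and 0 after APAP and GAL, ANIT and MDA each raised 2, and ConA raised none and lowered 4. The balance of calls over all genes moved on that scale too, after ANIT, APAP, CCl4, GAL and ConA, as given further on. List counts on that scale, here and below, stand without a share of all genes. Hnf4a, a transcription factor needed for Cyp7a1 and Cyp8b1 expression, rose after ANIT by 0.90 ± 0.12 (edgeR adjusted p = 3.66e-05) and fell after CCl4 by 0.72 ± 0.11 (edgeR adjusted p = 0.000874), though with library totals the CCl4 value was -0.29 (adjusted p = 0.143). It was at 0.30 ± 0.09 after MDA (edgeR adjusted p = 0.0169, and 0.0516 without mouse 1) and at -0.37 ± 0.15 after TAA (edgeR adjusted p = 0.0451, lost without mouse 3, 6 or 7).

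FGFR4 and its partner beta-klotho, encoded by Klb, receive the intestinal hormone FGF15, which FXR induces in the gut. Klb fell after TAA by 1.85 ± 0.21 (edgeR adjusted p = 4.20e-07) and after APAP by 0.82 ± 0.24 (edgeR adjusted p = 0.0124), the latter lost with library totals (-0.62, adjusted p = 0.101). Fgfr4 fell after CCl4 by 1.22 ± 0.18 (edgeR adjusted p = 0.000698). After GAL the Fgfr4 change was -2.55 ± 0.64 (edgeR adjusted p = 0.0295), which was lost without either saline mouse, without GAL mouse 4 or 8 and with library totals (adjusted p from 0.0692 to 0.155), and was -3.26 without GAL mouse 2. After TAA it was -0.32 ± 0.11 (edgeR adjusted p = 0.023), lost without TAA mouse 1 or 8 and with library totals. Nr5a2, the gene of LRH-1, fell after TAA by 0.87 ± 0.15 (edgeR adjusted p = 7.40e-05) and was not called after the other 6. Fgf15 was at 0 in some mice of every group and did not pass the filter.

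Of the 4 transporters tested, ANIT and MDA each raised 2 and lowered none, APAP, CCl4 and GAL lowered 3 and raised none, TAA raised 1 and lowered 2, and ConA raised 1 and lowered 1. Without TAA mouse 1 none was raised after TAA, without intraperitoneal saline mouse 7 the CCl4 count was 1, and with library totals CCl4 raised 1 and lowered 1 and ConA raised 1 and lowered 3. Abcb11, the bile salt export pump, fell after GAL by 3.46 ± 0.18 (edgeR adjusted p = 0.00176), after TAA by 2.10 ± 0.22 (1.59e-07) and after APAP by 2.03 ± 0.36 (0.000228). ConA mice had 5.2 to 22.0 CPM of it against 77.8 and 176, a change of -3.02 ± 0.40 (edgeR adjusted p = 0.000384). Its fall after CCl4, -0.80 ± 0.17 (edgeR adjusted p = 0.00517), was lost without saline mouse 7 and with library totals. Abcb11 was not called after ANIT (0.08 ± 0.36, edgeR adjusted p = 0.893) or MDA (0.52 ± 0.22, 0.077), but without MDA mouse 1 it was 0.69 (adjusted p = 0.00243). Slc51b rose after MDA by 4.88 ± 0.54 (edgeR adjusted p = 8.80e-07) and after ANIT by 3.53 ± 0.66 (0.000751), and by 2.45 without ANIT mouse 1. It also rose after ConA, to 6.79 to 37.7 CPM against 2.10 and 1.74, a change of 3.49 ± 0.70 (edgeR adjusted p = 0.00393), in livers with at most 1.65 CPM of Nr0b2. Slc10a1, which takes bile acids up from blood, fell after GAL by 2.32 ± 0.19 (edgeR adjusted p = 0.00208), after APAP by 2.07 ± 0.23 (2.22e-06), after CCl4 by 1.95 ± 0.13 (1.07e-05) and after TAA by 1.75 ± 0.26 (1.76e-05). It was 0.48 after ANIT, 0.02 after MDA and -1.27 after ConA, none of them called. With library totals the GAL changes were -2.69 for Abcb11 and -1.56 for Slc10a1, and the ConA changes -3.62 for Abcb11 and 2.80 for Slc51b, all still called. Without intravenous saline mouse 8 the Abcb11 change after ConA was -2.35, and Slc10a1 after ConA was called without ConA mouse 12 (-1.09, adjusted p = 0.00718).

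Of the other synthesis genes, 10 or 11 were tested in each comparison. GAL raised 1 and lowered 9, CCl4 raised 2 and lowered 7, APAP raised 1 and lowered 4, MDA raised 2 and lowered 3, TAA and ConA each raised 1 and lowered 3, and ANIT raised 2 and lowered 2. The number lowered by GAL was 3 to 6 without any of 5 mice (both saline mice and GAL mice 4, 7 and 8) and 2 with library totals, and the CCl4 number was 4 without saline mouse 7 and 3 with library totals. ConA lowered 5 with library totals. ANIT raised 4 without mouse 1 and 1 without mouse 3 or with library totals, and TAA lowered 5 without mouse 1 and raised 2 without mouse 7. Cyp2c70, which makes the muricholic acids of rodents, fell after GAL by 4.62 ± 0.75 (edgeR adjusted p = 0.00812), after ANIT by 1.67 ± 0.44 (0.0087), after TAA by 1.56 ± 0.35 (0.000902) and after MDA by 1.46 ± 0.29 (0.000662). It was called after CCl4 too (-1.11, lost without saline mouse 7), but not after APAP (-0.83) or ConA (-1.21). The GAL change of Cyp2c70 was -3.81 with library totals and -5.51 without GAL mouse 2, called in both. Ch25h, which makes 25-hydroxycholesterol and is known as an interferon-induced gene, was called higher after APAP, TAA, CCl4, GAL and ConA. Vehicle mice had 0 to 1.51 CPM of it after gavage, 0.0888 and 0 after intraperitoneal and 0.164 and 0.0966 after intravenous saline. ConA livers had 28.5 to 65.4 CPM (edgeR adjusted p = 3.59e-05), TAA livers 10.5, 9.15, 15.5, 20.4 and 17.9 (1.76e-06) and APAP livers 13.8, 0.808, 0.148, 0.577, 13.8 and 8.79 (0.00102). CCl4 and GAL mice reached at most 2.57 CPM, and the GAL call on Ch25h was lost without saline mouse 8 (adjusted p = 0.0522).

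**Figure D5:**
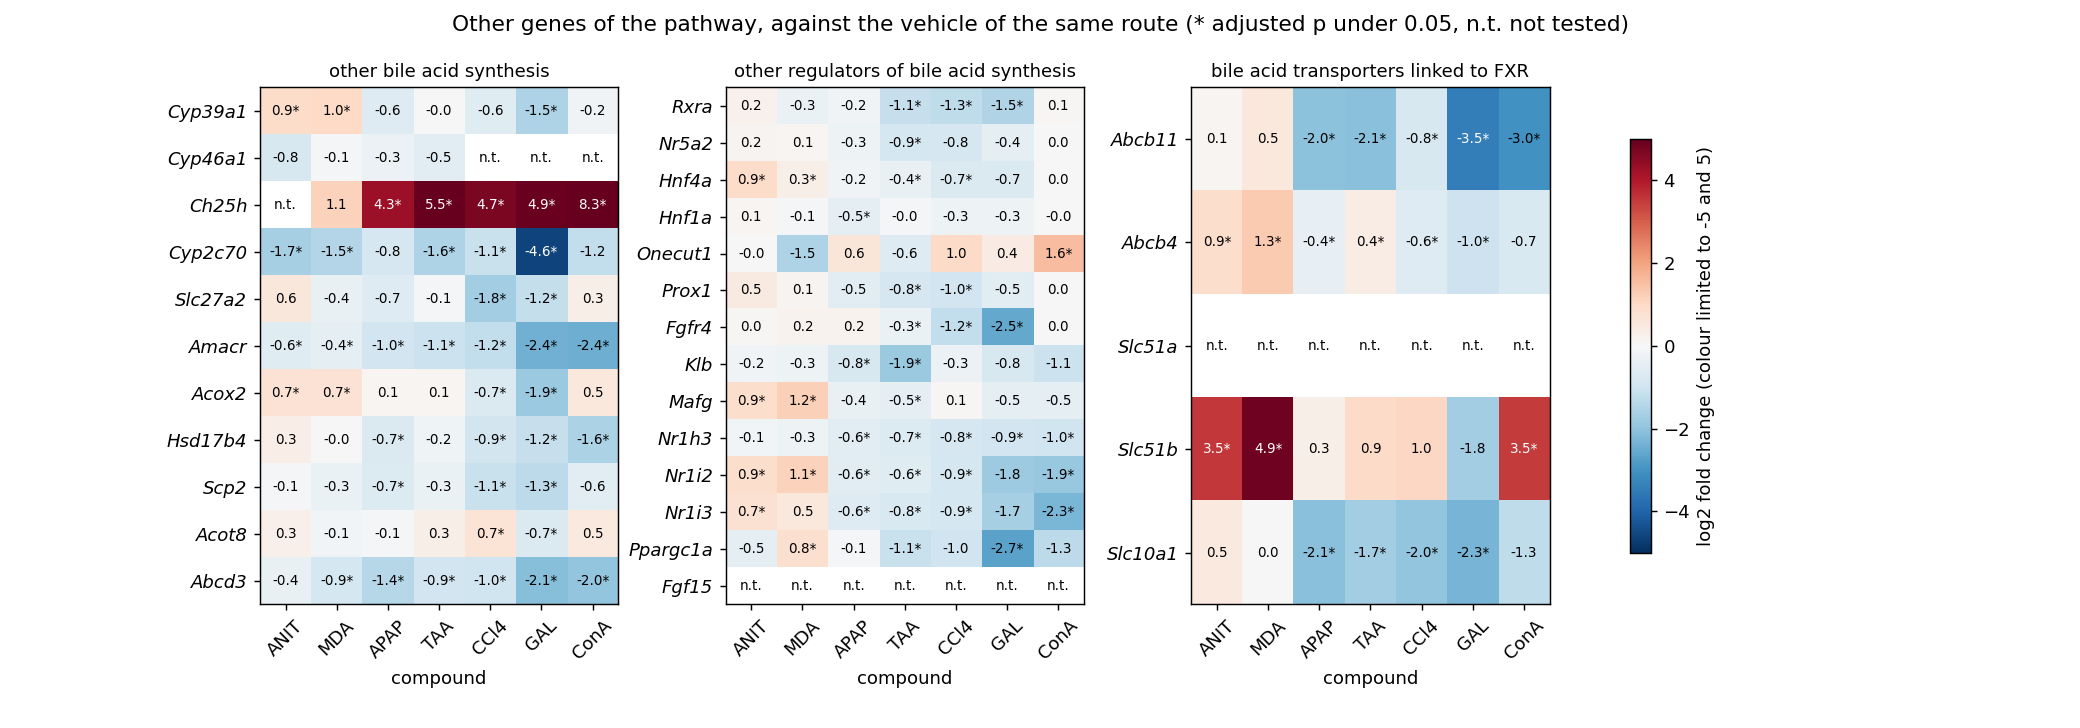
Log2 fold changes against the vehicle of the route for 3 lists of other pathway genes, with a star where edgeR's adjusted p was under 0.05 and n.t. where a gene did not pass the filter on low counts. Slc51b is red and starred after ANIT, MDA and ConA, and Abcb11 is blue and starred after the 5 toxicants other than ANIT and MDA.

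Profiles most like those of 4 of the genes were sought among 13459 genes, by the root mean square difference of the 7 log2 fold changes against all vehicles. The 7 profiles share the 17 vehicle mice. For Cyp7a1 the nearest was Lgr5, the gene of an R-spondin receptor, known from pericentral hepatocytes, at a difference of 0.715, with changes of -2.33 after ANIT, -3.82 after APAP, -2.69 after MDA, -3.23 after TAA, -2.12 after CCl4, -1.67 after GAL and -3.79 after ConA. The next were AC102159.1 (0.906) and ENSMUSG00000119011 (0.909). For Cyp8b1 the nearest was Thrsp, a gene induced by thyroid hormone in lipogenic tissue, at 0.956, with -6.13 after GAL and -5.13 after TAA. After ANIT Thrsp was at -2.34, against -0.34 for Cyp8b1. Slc22a29 (1.29) and 4930404H11Rik (1.37) came next. For Cyp7b1 they were Gm20492 (0.492), Arl4d (0.496) and Gm17794 (0.556), and for Nr0b2 Gm48386 (0.760), Gm5524 (0.845) and 1110018N20Rik (0.978). The 3 nearest to Nr0b2 fell with it after ConA and TAA, but their ANIT values, -0.44, -0.33 and 0.44, were below its 1.13.

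The scale mattered for the balance of calls over all genes, since library totals in place of TMM factors moved the median over all genes by more than 0.1 on the log2 scale after 5 toxicants. Against the vehicle of the route that median went from -0.01 to -0.23 after ANIT, from 0.07 to 0.22 after APAP, from 0.10 to 0.53 after CCl4, from 0.08 to 0.84 after GAL and from 0.03 to -0.56 after ConA. The share of calls that were higher went from 49.5% to 23.7%, 54.3% to 72.5%, 53.6% to 80.6%, 44.9% to 86.7% and 49.3% to 22.7% in the same order. Against all vehicles it went from 48.1% to 22.2%, 54.1% to 70.5%, 49.1% to 80.5%, 47.7% to 82.6% and 50.4% to 25.1%. For CCl4 against GAL it went from 52.2% to 32.7%, for ANIT and MDA against APAP and TAA from 43.8% to 19.8%, and for APAP against TAA from 38.4% to 49.6% with DESeq2. None of the calls on the 10 genes changed direction with library totals, but some were lost. These were Nr0b2 after ANIT (0.96, adjusted p = 0.065), Cyp7b1 (-1.10, 0.0991) and Nr1h4 (-0.59, 0.0822) after CCl4, and Cyp7b1 (-1.01, 0.09) and Baat (-1.99, 0.0606) after GAL. Cyp27a1 after ConA was gained (-1.17, adjusted p = 0.0125). Against all vehicles, Cyp7a1 after CCl4 (-1.51, adjusted p = 0.0603), Nr1h4 after GAL (-0.53, 0.0579), Nr0b2 after ANIT (0.89, 0.0666) and Cyp7b1 after ConA (0.03, 0.913) were lost too, and Slc27a5 after ConA was gained (-0.89, 5.14e-06). Between compounds, Akr1d1 in CCl4 against GAL (0.87, adjusted p = 0.077) and Nr1h4 in ANIT and MDA against APAP and TAA (0.71, 0.0611) were lost, and Baat in APAP against TAA was gained (0.78, 0.04).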

How the data were processed

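Liver RNA was made into stranded poly(A) libraries and sequenced single-end, per the labels' protocols. The deposited table holds the authors' estimated counts per gene for 57 mice (54307 genes, 51482 with a symbol), and the submitters' processing notes name Salmon 1.6.0, R 4.1.3 and GRCm39, while the annotation and the strand setting are not given in the sources used here. Of the values, 34.3% were not whole and were rounded. In 5409 genes with 1 transcript Spearman's rho between transcript length and the smallest value above 0 was -0.951 (across genes, which are not independent), so values look length-corrected and levels are not compared between genes.

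Totals per mouse had a median of 21532116, and 3 counts set the detection floor, for counting error only. Each comparison was a fit of its own groups in edgeR 4.0.16 (R 4.3.3) with TMM factors, filterByExpr and the quasi-likelihood test, with Benjamini-Hochberg adjustment over all genes tested, and was tested on simulated data. DESeq2 1.42.0, limma 3.58.1 on log2(CPM + 1), other filters and scales, mouse numbers and leaving out single mice (91 fits, none without a gavage vehicle mouse) were alternatives. Levels used factors set over the genes that passed filterByExpr across all groups, and the correlations of same-numbered mice used 12372 genes. Permutation tests (exact, or 100000 resamples) used scipy 1.17.1 (Python 3.11.15), and figures matplotlib 3.10.9.

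The genes and lists were chosen with earlier results of these data known. Besides the 10 genes, those named were pathway genes called in at least 3 of 7 comparisons with changes of at least 2 either way on the log2 scale, another 7 whatever their values, and the 3 profiles nearest to each of 4 genes. Samples of 1 group carry separate numbers in the labels, which do not call them separate animals, so p-values measure the spread between these samples.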

Additional observations from a re-analysis of the deposited data

Results flagged for a closer look

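In 11 of 70 sets of 4 to 7 mice (1 of the 10 genes in 1 of the 7 toxicant groups), a single mouse lay far from the rest of its group, by a rule that flags about 1 set in 20 by chance where values are independent and normally distributed. The sets share mice. MDA mouse 1 did so for 5 genes, at 67.5 CPM of Cyp7a1 (0 to 0.109 in the others), 17.1 of Cyp7b1 (5.30 to 9.98), 483 of Cyp8b1 (2.90 to 9.33), 43.9 of Nr0b2 (147 to 193) and 85.5 of Nr1h4 (18.7 to 30.5). TAA mouse 1 did so for 3 genes, at 57.0 CPM of Cyp7b1 (4.09 to 12.7), 19.1 of Cyp8b1 (2.86 to 4.40) and 610 of Slc27a5 (261 to 289). APAP mouse 1 had 14.7 CPM of Cyp7b1 (0.406 to 4.19), ConA mouse 2 had 67.6 CPM of Cyp7b1 (8.31 to 32.8), and GAL mouse 2 had 4.42 CPM of Cyp8b1 (0.705 to 1.13). Of the 11, 9 belong to mice numbered 1. The hepatocyte marker sum was the highest of the group in TAA mouse 1 (122410 CPM) and APAP mouse 1 (122240) and the lowest in MDA mouse 1 (69761).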

How the results depend on the processing

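Counts are of the 10 genes called. A fold of at least 2 gave 3 of 10 after ANIT (11.9% of all genes) and 3 after MDA (10.6%) against gavage vehicle, and 2 (12.4%) and 3 (10.8%) against all vehicles. One fit over all groups gave 2 after ANIT with either control set (17.9% and 19.8%). Mice numbered 1 to 4 alone gave 2 after APAP (6.28% of all genes called) and 1 after MDA (10.4%) with either control set, and 3 in ANIT and MDA against APAP and TAA (10.5%). For APAP against TAA, 0 in the edgeR test, the count was 1 with library totals (1.48%), a mean CPM of at least 5 (3.56%), limma (3.70%) or numbers above 4 (7.24%), and 2 with DESeq2 (8.27%) or one fit (9.65%). Leaving out each treated mouse in turn, but no vehicle mouse, gave 1 to 4 after ANIT (17.5% to 27.4% of all genes called). Against all vehicles it also gave 1 to 4 after ANIT (17.5% to 26.9%). It gave 4 to 7 after MDA (28.8% to 34.8%), 9 to 10 after APAP (27.2% to 32.4%) and 9 to 10 after TAA (45.2% to 50.9%). It gave 8 to 9 after CCl4 (30.5% to 36.2%), 5 to 9 after GAL (16.1% to 42.5%) and 7 after ConA (30.6% to 36.1%). Without 1 saline mouse a single control remains, so no such count is given here. Between compounds only some mice were left out (the groups of up to 5, and MDA and APAP mouse 1). This gave 0 to 4 in APAP against TAA (0.445% to 14.4% of all genes called) and 3 to 6 in CCl4 against GAL (32.3% to 47.3%). For ANIT and MDA against APAP and TAA it gave 5 to 7 (26.6% to 33.6%). Direction changed in 3 results. These were Cyp7b1 after TAA, which leaving out 1 mouse moved over -0.86 to 0.56 against gavage vehicle and -0.81 to 0.61 against all vehicles (the lowest without TAA mouse 1), and Cyp7b1 after ConA, at -0.10 among numbers above 4. Of 2899 values under alternatives, 93 values that were not called also changed sign. The cause was not tested.

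Mice of different groups share numbers, but between treated and vehicle mice the correlation of same-numbered mice lay between -0.15 and 0.27, and between ANIT and MDA it went down to -0.36. No comparison with 3 or more pairs had every pair over 0.1, so the mice were not treated as paired in the main fits. So few pairs cannot show that same-numbered mice share no batch. The median of TAA against gavage vehicle was 0.133 over 4 pairs. The replicate block gave 3 of 10 after ANIT (8.96% of all genes called), 2 after APAP (1.85%), 6 after MDA (20.1%), 9 after TAA (36.2%) and 8 after GAL (27.5%).

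With limma, 6 calls of the 10 genes were lost and 8 gained over all comparisons. Against route vehicles, Nr0b2 after ANIT (0.90, adjusted p = 0.111) and Cyp7a1 after ConA (-3.09, 0.0602) were lost, and Nr0b2 after APAP (-1.34, 0.0212) and Cyp8b1 after MDA (-4.43, 1.19e-05) were gained. Counts over all genes moved by over 1.5 times in several settings. After ANIT, 3967 became 1680 with a fold of at least 2, 1104 with the block and 1688 among numbers 1 to 4. After APAP 4436 became 1915, 242 and 824, after MDA 4570 became 1432, 2554 and 1292 (3020 above 4), and after TAA 7247 became 3619, 4810 and 2689 (4632 with a mean CPM of at least 5). CCl4 went from 5152 to 3112 with the fold, and ConA from 4827 to 3011 with the mean CPM and 3075 among numbers above 4. APAP against TAA went from 367 to 208 with library totals, 136 unfiltered, 1159 with DESeq2, 0 with the block, 1 and 1032 in the 2 number ranges and 1812 with one fit. ANIT and MDA against APAP and TAA went from 4813 to 2304 with the fold and also with the block, 2764 with the mean CPM and 1628 among numbers 1 to 4, and CCl4 against GAL from 6248 to 3019 with the fold. The vehicle groups differed in 2 and 4 genes by edgeR and in 104 and 72 by DESeq2. With 2 injected controls a route, comparisons after CCl4, GAL and ConA rest on few mice, and 3 or fewer estimated counts limit Cyp7a1 in 6 MDA, 2 APAP, 1 ANIT and 1 ConA mice and Nr0b2 in 2 ConA mice.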
